A study of Mus musculus and Homo sapiens with 4 samples.

Results

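Chromosome 6 was described here through 1290 of its 1370 listed entries, out of 25932 entries listed for the VCaP libraries. An entry is a gene, transcript or short RNA with its own symbol and position. The members were chosen by position and symbol: every chromosome 6 entry was taken except histone genes, HLA genes, ESR1, TAP1, TAP2, TAPBP, PSMB8 and PSMB9, which left out 80 entries. The chromosome itself had been selected on the measured ratio between the libraries, so the ratios below are a description and were not tested.

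VCaP is a human prostate cancer cell line, and VCaP ERα is the same line made to overexpress the oestrogen receptor ERα stably. Total RNA of VCaP (passages 5 to 6) and of VCaP ERα (passages 4 to 5) was sequenced as 1 strand-specific library each, depleted of ribosomal RNA beforehand. Poly-A RNA of fibroblasts (MEFs) grown from C57BL/6 mouse embryos, wild-type (WT) or with a NEAT1 knockout (KO), at passages 2 to 3, was sequenced as 1 library each. The comparison of VCaP ERα with VCaP asks which transcripts differ when ERα is raised. With 1 library per condition no difference has a replicate check, and every ratio compares 2 libraries rather than 2 conditions.

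ERα is a nuclear receptor that binds DNA when activated by oestrogen and changes the transcription of nearby genes. Chromosome 6 carries on its short arm the major histocompatibility complex (MHC), whose class III part holds genes of complement, tumour necrosis factor and heat shock proteins. Its long arm is often partly deleted in prostate tumours, and the short and long arms also hold many genes of housekeeping processes that have no shared function.

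The overexpressed gene, ESR1, which is no member, read 15.7 RPKM in the library labelled VCaP against 209 RPKM in VCaP ERα. RPKM is reads scaled by the length of the entry and by the mapped reads of the library. The cell type was less clear for the library labelled VCaP. All 11 listed markers of prostate luminal cells were low there, at 0 to 8.18 RPKM with KLK4 at 0 and KLK2 and ERG under 1 RPKM, against 19.8 to 694 RPKM in VCaP ERα. Of 12 listed markers of breast luminal cells, 9 were lowered and 1 was raised in VCaP ERα. The 12 ranged from 3.14 to 1710 RPKM in the library labelled VCaP and from 0.0954 to 727 RPKM in VCaP ERα. KRT19 read 1630 RPKM in the library labelled VCaP against 5.44 RPKM in VCaP ERα, and GATA3 read 90.5 and 0.633 RPKM. AGR2, the raised one, read 114 and 727 RPKM. Chromosome Y, left out of the comparison of chromosomes below, had 18 expressed entries, of which 17 were raised and 1 was lowered. Whether the cells match the label of the library was not tested. Of 8 fibroblast and immune markers, 1 reached 1 RPKM in either library. These markers move together with every ratio below, so a difference due to ERα and one due to the cells sampled cannot be told apart. In bulk RNA, fewer cells of a type and less RNA per cell cannot be told apart either.

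Each ratio below is log2 of VCaP ERα over the library labelled VCaP, with 1 RPKM added to both values, less the median of the 9754 entries that reached 1 RPKM in both libraries. That median was -0.59, so values without this centring are lower by that amount. A member was called expressed at 1 RPKM or more in at least 1 library, raised at a centred ratio of 1 or more (2-fold) and lowered at -1 or less. Of the 1290 members, 711 were expressed and 579 were not, including 101 at 0 in each library. Among the expressed ones, 453 reached 1 RPKM in both libraries, 122 only in the library labelled VCaP, and 63 longer and 73 short entries (under 200 bases) only in VCaP ERα. Members that reached it in only 1 library passed through the library in which they were high, so the filter set the direction of their ratio before centring. Those that passed only through VCaP ERα could not be called lowered, nor the others raised.

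Taken as a whole the chromosome was raised slightly more often than the rest of the genome, and no surplus was left without its very short entries. Of the 711 expressed members, 211 (29.7%) were raised, against 26.8% of all 13954 expressed entries. Lowered members numbered 124 (17.4%), against 19.2% of all expressed entries. The median ratio was 0.12 over the members and 0.09 over all expressed entries. An alternative chosen after seeing the data left out entries spanning under 200 bases. It kept 635 expressed members, of which 137 (21.6%) were raised, against 24.9% of the 13474 expressed entries of that length. In the same set 124 (19.5%) were lowered, against 19.9%, and the median ratio was -0.03.

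The 76 expressed members under 200 bases were nearly all raised, 74 of 76, with a median ratio of 2.57. Of these, 70 were listed at 0 in the library labelled VCaP, so their ratio is set by the added 1 RPKM. Having passed the filter through VCaP ERα, these 70 could only be called raised. Over the whole genome 77.9% of 480 expressed short entries were raised and 2.29% lowered. Chromosome 6 held 76 of them, the second highest number among 23 chromosomes, after 78 on chromosome 15.

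**Figure D1:**
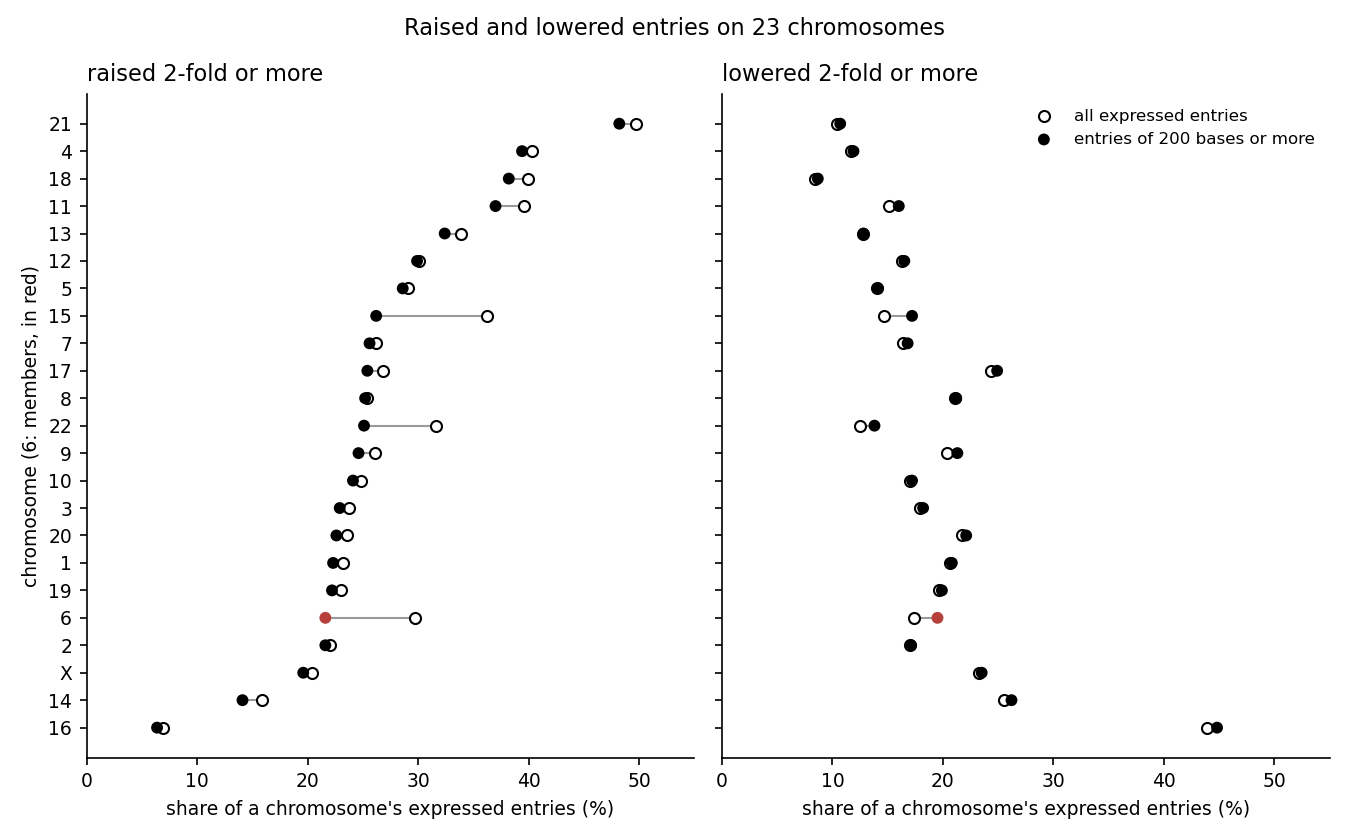
Share of each chromosome's expressed entries raised (left) or lowered (right) 2-fold or more in VCaP ERα, in percent, for 23 chromosomes ordered by the raised share of longer entries. Open points are all expressed entries and filled points are those of 200 bases or more. Chromosome 6 (members only, filled point in red) moves from 29.7% to 21.6% raised when short entries are left out, while chromosome 16 has the fewest raised (6.37%) and chromosome 21 the most (48.2%).

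Among the 23 chromosomes with at least 100 expressed entries, chromosome 6 ranked 9th for the share raised with every entry kept and 19th without the short ones. Its median ratio over members of 200 bases or more ranked 18th, between 0.93 on chromosome 21 and -0.86 on chromosome 16. The plot of shares by chromosome shows chromosome 6 within the middle group for lowered entries, where it ranked 10th.

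The raised and lowered longer members differed in level. The 137 raised members had a median level of 1.69 RPKM in the library labelled VCaP against 6.28 RPKM in VCaP ERα. The 124 lowered members had a median level of 12.0 RPKM in the library labelled VCaP against 1.39 RPKM in VCaP ERα. Of the raised members 59 were under 1 RPKM in the library labelled VCaP, 21 of them at 0, and of the lowered members 47 were under 1 RPKM in VCaP ERα, 3 of them at 0. Those that reached 1 RPKM in both libraries were nearly equal in number, 78 raised and 77 lowered. Median genomic spans were 21.9 kb for the raised, 30.3 kb for the lowered and 24.0 kb for the remaining longer members.

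By position, the longer members of the short arm sat lower than those of the long arm. The arms were separated at the widest gap between listed entries, chr6:58395604-62447824 in hg18 coordinates. On the short arm 361 expressed members of 200 bases or more had a median ratio of -0.23, with 68 (18.8%) raised and 84 (23.3%) lowered. On the long arm 274 such members had a median of 0.20, with 69 (25.2%) raised and 40 (14.6%) lowered. With short entries kept, the medians were 0.06 on the short arm and 0.21 on the long arm, and the share raised turned to 32.4% on the short arm against 25.4% on the long arm, with 19.3% and 14.5% lowered.

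In windows of 10 Mb, the lowest medians were below 20 Mb on the short arm, and the highest was on the long arm. Longer members starting between 10 and 20 Mb had a median of -1.12 (n = 37, 4 raised and 22 lowered), and those below 10 Mb a median of -0.61 (n = 34, 1 raised and 12 lowered). Of the 71 longer members starting below 20 Mb, 53 had a ratio below 0. The highest median was 0.96 between 90 and 100 Mb (n = 14, 7 raised and 1 lowered). The end of the long arm, between 170 and 180 Mb, was low too, with a median of -0.60 (n = 5, 0 raised and 1 lowered). Between 30 and 40 Mb the median turned with the short entries, from 0.67 (n = 216) with them to -0.22 (n = 144) without.

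A moving median over 11 neighbouring expressed members was used to find runs, meaning at least 5 successive windows at 1 or above, or at -1 or below. This gave 2 raised runs, with 83 and 8 members, and 1 lowered run with 26 members. The 91 members in raised runs placed chromosome 6 6th by count among the 23 chromosomes, where chromosome 11 was highest with 237. As a share of expressed entries the 91 made up 12.8%, and chromosome 21 was highest with 37.6%. Without short entries 24 members (3.78%) remained in raised runs and the rank by count was 16th. The 26 members in the lowered run ranked 9th by count, and chromosome 16 was highest with 226.

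**Figure D2:**
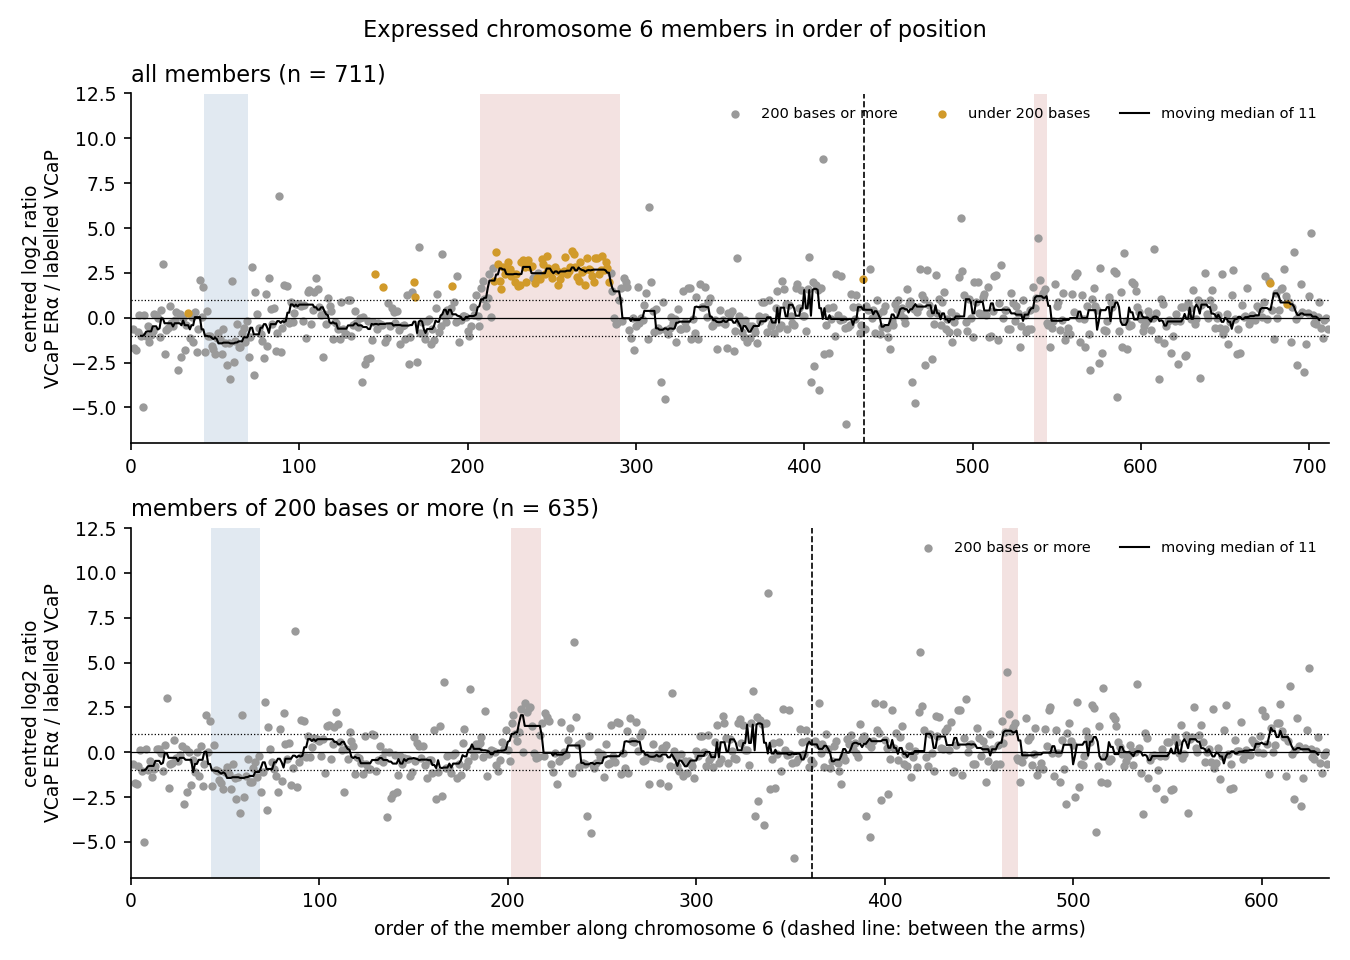
Centred log2 ratio of VCaP ERα over the library labelled VCaP for each expressed member, in order along chromosome 6, with all 711 members above and the 635 of 200 bases or more below. Grey points are members of 200 bases or more, gold points shorter ones, the black line the moving median of 11, the dotted lines the 2-fold limits, and shading the raised (red) and lowered (blue) runs. The broad raised run of the upper panel narrows from 83 to 16 members in the lower one, while the lowered run holds 26 members in both.

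The first raised run, chr6:33659493-34357947, spanned 698 kb and was mostly a dense cluster of short entries that read 0 in the library labelled VCaP. Of its 83 expressed members 67 were under 200 bases, and 70 were at 0 in the library labelled VCaP. Those 70 could only be called raised once they passed the filter. The cluster itself, chr6:33946024-33986794, held 81 short entries within 40.8 kb, each named only by a sequence accession and described in no other way. They were 29 to 161 bases long, with a median of 40. Their lengths summed to 3653 bases, or 8.96% of the interval, with bases of overlapping entries counted more than once.

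In the library labelled VCaP 80 of these 81 entries were listed at 0, and the other, DQ584174, read 0.291 RPKM. In VCaP ERα 79 were above 0 and 67 reached 1 RPKM, with a median of 2.70 RPKM over all 81 and a highest value of 7.67 RPKM. DQ569983, the highest, thus read 0 in the library labelled VCaP against 7.67 RPKM in VCaP ERα. DQ582547 read 0 and 7.27 RPKM, and DQ586668 read 0 and 6.67 RPKM. Away from the cluster 25 other members were short, and 9 of them were expressed.

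The longer entries that lay in or beside the cluster had levels near the median of its short ones, which themselves ranged from 0 to 7.67 RPKM. BC042121, inside it, read 0.228 RPKM in the library labelled VCaP against 2.81 RPKM in VCaP ERα. DQ569955, also inside and 1625 bases long, read 0 and 2.71 RPKM. AL832447, which starts 0.0630 kb past the last short entry, read 0 and 2.79 RPKM. The short and the long entries here thus shared their near absence from the library labelled VCaP, and whether they stem from separate transcripts was not tested.

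Without the short entries the same run held 16 members, of which 13 had a ratio above 0, 10 were raised and the median was 1.29. MLN, which encodes the gut hormone motilin, lies 66.3 kb before the cluster and read 0 in the library labelled VCaP against 3.47 RPKM in VCaP ERα. IP6K3, an inositol hexakisphosphate kinase, read 0.188 and 3.18 RPKM (ratio 2.41). GRM4, a metabotropic glutamate receptor, read 0.832 and 2.37 RPKM (ratio 1.47). All 3 were under 1 RPKM in the library labelled VCaP, so they passed the filter only through VCaP ERα.

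The more abundant entries of the neighbourhood differed in direction. DQ591995, 374 kb past the cluster and just outside the run, read 21.1 and 45.2 RPKM (ratio 1.65). DQ572964, the last of the run, read 20.4 and 26.7 RPKM (ratio 0.96), and SBP1 before the cluster read 7.49 and 11.2 RPKM (ratio 1.11). These 3 were chosen after their values were seen. ITPR3, a calcium release channel of the endoplasmic reticulum, read 4.39 and 6.28 RPKM and lay just inside the limit with a ratio of 1.02. LEMD2, a protein of the inner nuclear membrane, read 14.5 RPKM in the library labelled VCaP against 9.59 RPKM in VCaP ERα, a ratio of 0.04. HMGA1, a chromatin protein, read 21.3 and 13.6 RPKM, a ratio of -0.02. BAK1, a pro-apoptotic protein 290 kb before the cluster and just outside the run, read 7.63 and 3.11 RPKM, a ratio of -0.48. The member furthest the other way in the run was BC051359 at 2.16 and 0.665 RPKM, with a ratio of -0.33.

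**Figure D3:**
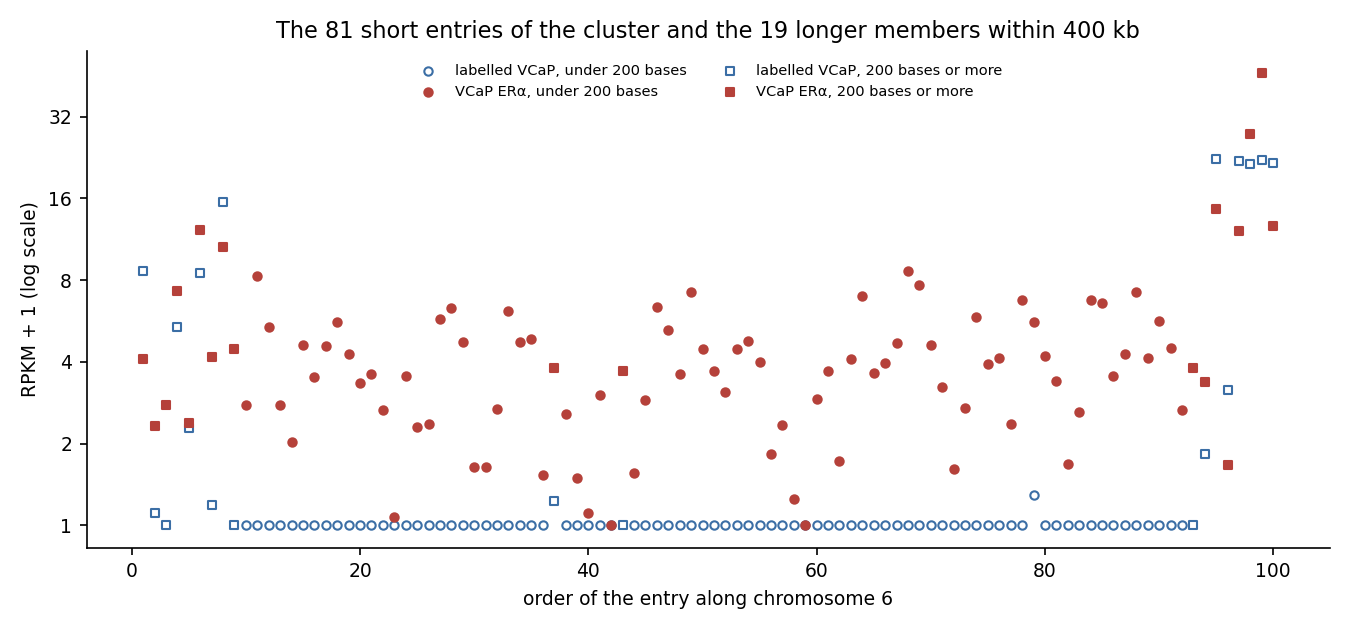
RPKM + 1 on a log scale in the library labelled VCaP (open) and in VCaP ERα (filled) for the 81 short entries of the cluster (circles) and the 19 longer expressed members within 400 kb (squares), in order along chromosome 6. Nearly all open circles lie at 1, meaning 0 RPKM, while the filled circles scatter up to 7.67 RPKM. Of the longer entries at the right edge, HMGA1 reads 21.3 and 13.6 RPKM, and BC051359, which overlaps it, 2.16 and 0.665 RPKM.

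The lowered run, chr6:11291519-18372778, was the longest of the 3 runs by span and rested on genes of ordinary length. It spanned 7080 kb and held 26 members, none under 200 bases, of which 24 had a ratio below 0 and 18 were lowered. The median level was 5.17 RPKM in the library labelled VCaP against 0.853 RPKM in VCaP ERα, with a median ratio of -1.35. With that median under 1 RPKM, many of its members passed the filter only through the library labelled VCaP, in which they were high. Whether the run remains with 1 RPKM asked in both libraries was not computed.

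MYLIP, the ubiquitin ligase that marks the LDL receptor for degradation, differed most, at 27.8 RPKM in the library labelled VCaP against 0.808 RPKM in VCaP ERα (ratio -3.40). JARID2, a partner of the Polycomb complex PRC2, read 20.8 and 1.38 RPKM (ratio -2.61). ATXN1, the ataxin 1 gene, read 13 and 0.663 RPKM (ratio -2.49). All 3 lie within chr6:15354506-16869700, and each was high only in the library labelled VCaP. Of the 2 members with a ratio above 0, TMEM170B read 1.05 and 0.770 RPKM (ratio 0.38, or -0.38 under quantile normalization). The other, between MYLIP and ATXN1, was GMPR, an enzyme that converts GMP to IMP, at 2.11 RPKM in the library labelled VCaP against 7.69 RPKM in VCaP ERα (ratio 2.07).

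The other members of the run, which were chosen for naming after their values were seen, included genes of high and of low level. NEDD9, a scaffold protein of focal adhesions at the start of the run, read 78.4 RPKM in the library labelled VCaP against 13.1 RPKM in VCaP ERα (ratio -1.90). RANBP9, a scaffold protein that binds the GTPase Ran, read 17.0 and 1.94 RPKM (ratio -2.02). NUP153, a component of the nuclear pore, read 17.5 and 2.91 RPKM (ratio -1.65). NOL7, a nucleolar protein, read 28.1 and 7.47 RPKM (ratio -1.19). These 4 genes serve unrelated processes and were all higher in the library labelled VCaP.

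GFOD1 and its overlapping neighbour C6orf114 were listed at 0 in VCaP ERα, against 5.15 and 2.26 RPKM in the library labelled VCaP. EDN1, the vasoconstrictor endothelin 1, read 2.30 RPKM in the library labelled VCaP against 0.0705 RPKM in VCaP ERα. Members near the end varied. DEK, a chromatin protein and the last in the run, read 25 and 14.2 RPKM (ratio -0.19). TPMT, which methylates thiopurine drugs, read 1.96 and 0.334 RPKM (ratio -0.56), and AOF1, between them, read 4.80 and 0.478 RPKM (ratio -1.38). With the libraries quantile-normalized the median of the run was -1.55 and 22 members were lowered.

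**Figure D4:**
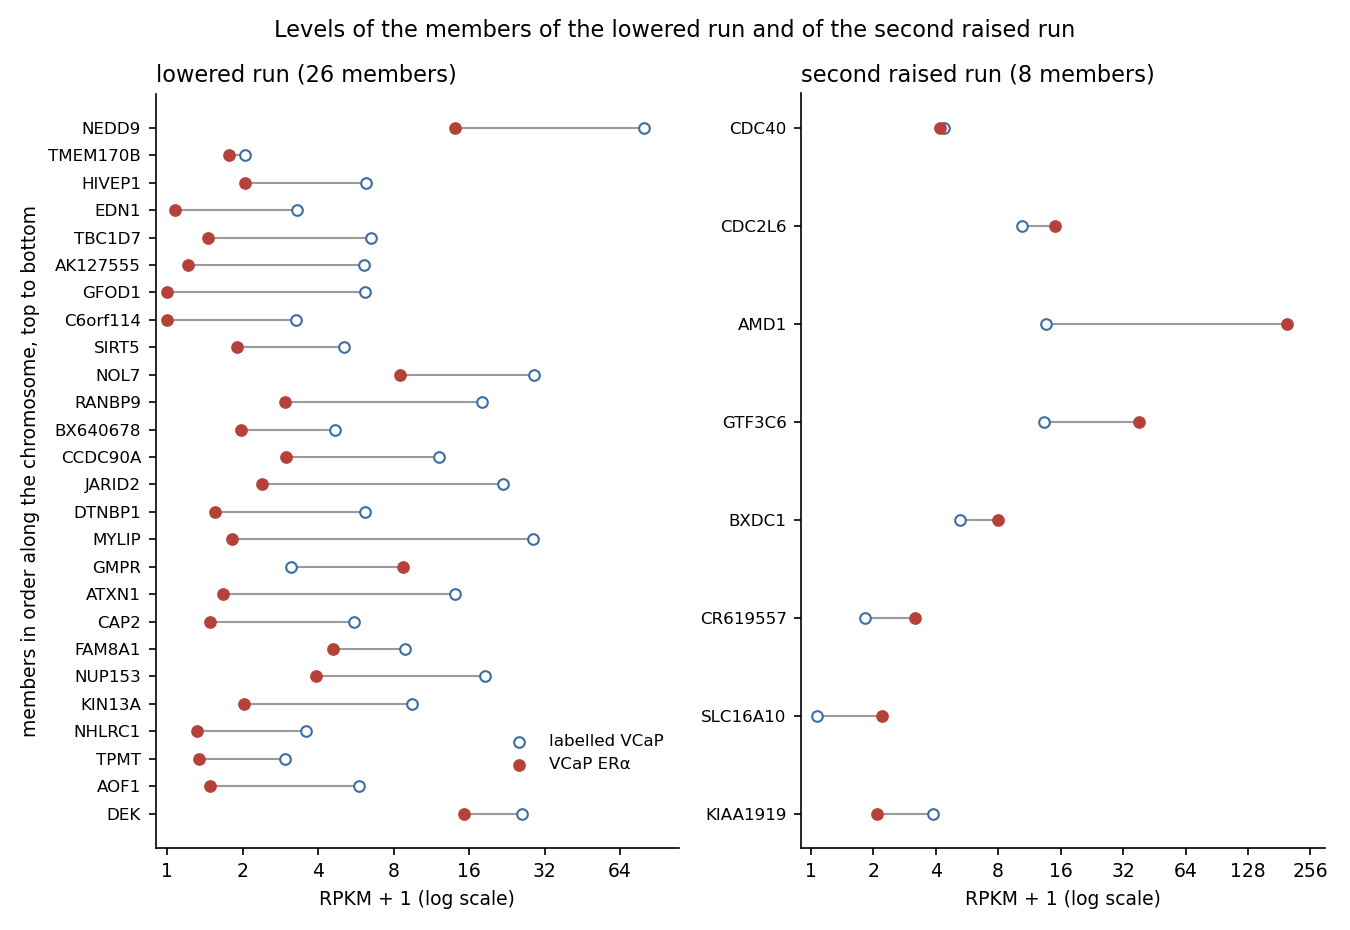
RPKM + 1 on a log scale for the 26 members of the lowered run (left) and the 8 of the second raised run (right), each in order along chromosome 6 from top to bottom. Open points are the library labelled VCaP and filled points VCaP ERα, joined by a line for each member. On the left GMPR stands alone with the filled point to the right, and on the right AMD1 has the widest gap, from 12.6 to 196 RPKM.

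The second raised run, chr6:110608280-111696954 on the long arm, held 8 members with a median ratio of 1.30, of which 6 were raised, or 5 under quantile normalization. With 1 RPKM asked in both libraries neither raised run was found, and 0 members lay in such a run. AMD1, the S-adenosylmethionine decarboxylase that commits the cell to making spermidine and spermine, read 12.6 RPKM in the library labelled VCaP against 196 RPKM in VCaP ERα (ratio 4.45). GTF3C6, a subunit of the RNA polymerase III factor TFIIIC, read 12.3 and 37.3 RPKM (ratio 2.11). SLC16A10, a transporter of aromatic amino acids, read 0.0725 and 1.20 RPKM (ratio 1.62). AMD1 was the only one of the 8 above 40 RPKM in either library. The run ended at KIAA1919, which read 2.87 and 1.09 RPKM (ratio -0.30), and began at CDC40, a splicing factor, at 3.38 and 3.20 RPKM (ratio 0.53).

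Unbroken stretches of at least 8 longer members on 1 side of 0 were counted as well. Chromosome 6 had 4 such stretches above 0, with 37 members, and 5 below 0, with 57 members. The 57 members below 0 made up 8.98% of its longer members and the 37 above 0 made up 5.83%. On chromosome 16, for comparison, 56.1% of longer entries lay in stretches below 0, and on chromosome 21 30.4% lay in stretches above 0. Among the stretches above 0 was one of 9 members at chr6:96132134-100139803, with a median ratio of 1.17. It held CCNC, the cyclin C gene of the Mediator kinase module, at 20.1 RPKM in the library labelled VCaP against 44.6 RPKM in VCaP ERα. Among those below 0 were 2 in the MHC, described with its genes below, and one of 11 members at chr6:43056060-43305189 with a median of -0.78.

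Single genes outside the runs had the widest differences. CRISP3, a cysteine-rich protein secreted by prostate and salivary gland (chr6:49803054-49820060), read 0.950 RPKM in the library labelled VCaP against 603 RPKM in VCaP ERα (ratio 8.87). FKBP5, a co-chaperone of steroid receptors whose transcription androgens and glucocorticoids raise (chr6:35649345-35812702), read 0.999 and 94.2 RPKM (ratio 6.16). PM20D2, a peptidase-family protein, read 1.11 and 65.5 RPKM (ratio 5.57). CRISP3 had the highest ratio of the 711 members, and its paralogues CRISP2 (0 and 0.365 RPKM) and CRISP1 (0 and 0.0829 RPKM) were not expressed.

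Of the 10 members with the highest ratios, 4 were listed at 0 in the library labelled VCaP. SCGN, a calcium-binding protein of neuroendocrine cells, read 0 and 71.2 RPKM. SMOC2, a secreted calcium-binding matrix protein, read 0 and 16.5 RPKM. SLC22A3, an organic cation transporter, read 0 and 7.45 RPKM, and DQ569983 of the short cluster is the fourth. The remaining ones beside AMD1 were SLC44A4, a choline transporter-like protein, at 0.0553 and 9.72 RPKM (ratio 3.93), and IL20RA, a receptor subunit for interleukin 20, at 0.230 and 10.6 RPKM (ratio 3.83). All but AMD1 and PM20D2 were under 1 RPKM in the library labelled VCaP.

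At the other end, FAM83B read 91.0 RPKM in the library labelled VCaP against 0.0150 RPKM in VCaP ERα (ratio -5.91). SERPINB1, an inhibitor of neutrophil proteases, read 50.8 and 0.0781 RPKM (ratio -5.00). TPBG, the trophoblast surface glycoprotein 5T4, read 43.3 and 0.0960 RPKM (ratio -4.75). These 3 were close to absent from VCaP ERα. CDKN1A, which encodes the cyclin-dependent kinase inhibitor p21 (chr6:36754437-36763087), read 297 and 7.71 RPKM (ratio -4.51) and so was still expressed in both libraries. PTPRK, a receptor tyrosine phosphatase of the long arm, read 77.6 and 1.42 RPKM (ratio -4.43).

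The last 5 of the 10 lowest ratios lay close together. C6orf141 read 26.5 and 0.110 RPKM (ratio -4.04). IER3, an immediate early gene of the MHC region, read 23.1 and 0.314 RPKM (ratio -3.61). FAM46A (22.1 and 0.294 RPKM), STK38, a kinase of the NDR family (50.0 and 1.86 RPKM), and TNFRSF21, the death receptor DR6 (57.1 and 2.26 RPKM), each had a ratio of -3.57. None of these 10 genes lay in the lowered run.

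**Figure D5:**
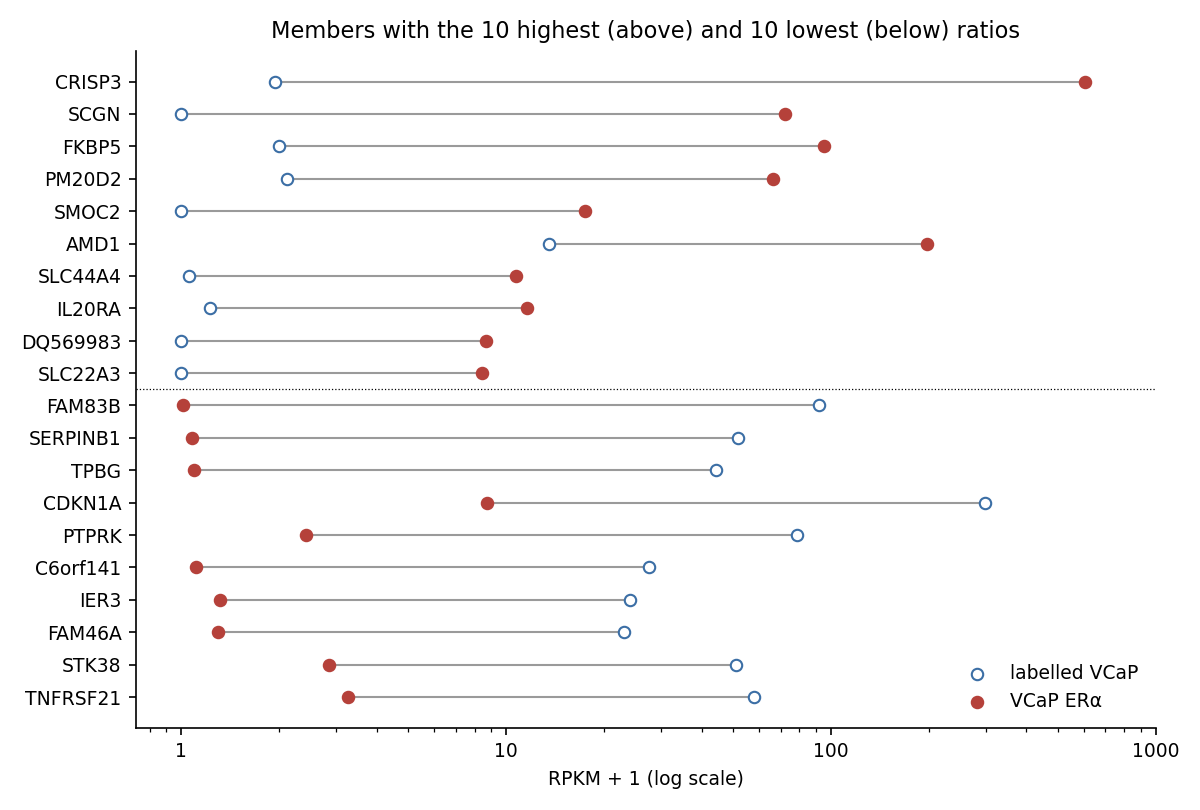
RPKM + 1 on a log scale in the library labelled VCaP (open) and VCaP ERα (filled) for the 10 members with the highest centred ratios (above the dotted line) and the 10 with the lowest (below it), in order of ratio. CRISP3 reaches 603 RPKM in VCaP ERα and CDKN1A 297 RPKM in the library labelled VCaP, while SCGN, SMOC2, DQ569983 and SLC22A3 start from 0.

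The limits themselves passed through a continuous range of values. Just inside the raised limit lay C6orf134 (ratio 1.001) and AK023251 (1.005), and just outside it POLR1C (0.988) and MAP3K7IP2 (0.984). Just inside the lowered limit lay HECA (-1.009) and HIVEP1 (-1.011), and just outside it BPHL (-0.947) and FAM26F (-0.934).

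The members were also grouped by role, and each list is given with its counts and median. Beside them stand those of all expressed entries, of which 26.8% were raised and 19.2% lowered with a median of 0.09. These shares include the short entries, while the listed genes all span 200 bases or more. Among expressed entries of that length 24.9% were raised and 19.9% lowered, with a median of 0.05. A gene may stand in several lists. Without centring the positive medians below turn negative, except that of the zinc finger genes. Genes with near-identical copies elsewhere, such as those of ribosomal proteins, EEF1A1, tubulins, COX7A2 and the GSTA family, may share reads with those copies, and how such reads were assigned is not given in the sources used here.

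The chosen list of MHC genes outside HLA had the most members, and its genes were lowered more often than raised. Of 84 found, 59 were expressed, 4 (6.78%) were raised, against 26.8% of all expressed entries, and 17 (28.8%) lowered, against 19.2%, with a median ratio of -0.44. The most abundant was RPS18, a ribosomal protein, at 68.2 RPKM in the library labelled VCaP against 226 RPKM in VCaP ERα (ratio 2.30). CLIC1, a chloride intracellular channel protein, read 180 and 43.2 RPKM (ratio -1.44). TUBB, a beta-tubulin, read 144 and 66.2 RPKM (ratio -0.52). The list does not hold every member of the interval. Among those left off it, AK057104 (ratio 3.54) and C6orf48 (1.45) were raised, and LSM2 (-1.18) and C6orf47 (-1.12) were lowered.

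The next 3 genes of the list by level were NEU1, PPP1R11 and DDR1. NEU1, the lysosomal sialidase, read 70.6 RPKM in the library labelled VCaP against 7.65 RPKM in VCaP ERα (ratio -2.46). PPP1R11, an inhibitor of protein phosphatase 1, read 23.6 and 20 RPKM (ratio 0.36). DDR1, a collagen receptor kinase, read 38.9 and 3.48 RPKM (ratio -2.56). The stretches below 0 here ran over 12 members at chr6:30958673-31736528, from DDR1 to C6orf47 (median -0.88), and over 9 members at chr6:31955516-32253820, from EHMT2 to AGPAT1 (median -0.85). MICA, a stress-induced ligand of natural killer cells chosen after its value was seen, belonged to the first at 18.1 and 1.70 RPKM (ratio -2.23). Complement C4 entries and C2 were under 1 RPKM in both libraries, and TNF read 1.63 and 0.419 RPKM.

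Genes of apoptosis and NF-kB signalling were lowered in 7 of 18 expressed members (38.9%), against 19.2% of all expressed entries, and raised in 2 (11.1%), against 26.8%, with a median ratio of -0.63. PERP, a p53 effector of the plasma membrane, read 385 RPKM in the library labelled VCaP against 23 RPKM in VCaP ERα (ratio -3.42). TNFRSF21, SERPINB1 and IER3 of the same list are given above. BCLAF1, a nuclear protein that binds BCL2 relatives, read 23 and 19.9 RPKM (ratio 0.39), and MAP3K7IP2, an adaptor of the kinase TAK1, read 16.4 and 21.9 RPKM. AIM1, a crystallin-like protein of the long arm, was one of the raised members, at 3.30 and 21.1 RPKM (ratio 2.96).

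Cell cycle and replication genes were split. Of 23 expressed, 6 (26.1%) were raised and 4 (17.4%) lowered, both near the 26.8% and 19.2% of all expressed entries, with a median of 0.03. Under quantile normalization 7 were raised and 8 lowered, and the median turned to -0.07. Beside CDKN1A and CCNC, CDC5L, a core spliceosome protein, read 15.1 RPKM in the library labelled VCaP against 30.2 RPKM in VCaP ERα (ratio 1.54). CCND3, which encodes cyclin D3, read 25.7 and 4.28 RPKM (ratio -1.75). CUL7, a cullin of ubiquitin ligases, read 19.5 and 4.36 RPKM (ratio -1.34). The list thus held a cyclin in each direction.

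Transcription and chromatin factors mostly stayed within the 2-fold limits. Of 31 expressed, 4 (12.9%) were raised and 5 (16.1%) lowered, with a median of -0.01 that turned to 0.08 under quantile normalization. CITED2, a co-activator that binds CBP and p300, read 104 RPKM in the library labelled VCaP against 59.1 RPKM in VCaP ERα (ratio -0.21). SOX4, an HMG-box factor, read 50.9 and 22.3 RPKM (ratio -0.56). HMGN4, a nucleosome-binding protein, read 15.3 and 35.7 RPKM (ratio 1.77), and BRD2, a bromodomain protein, 23.7 and 16.8 RPKM (ratio 0.12). JARID2 of the lowered run was the lowest of the list.

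The zinc finger genes near the histone cluster had a median ratio of 0.73 over 13 expressed members, of which 3 were raised and 1 lowered. ZSCAN16 read 8.49 RPKM in the library labelled VCaP against 9.52 RPKM in VCaP ERα (ratio 0.74). ZNF193 read 7.06 and 7.91 RPKM (ratio 0.73). ZNF187 read 4.55 and 9.03 RPKM (ratio 1.44). These genes encode presumed DNA-binding proteins, and all 3 were under 10 RPKM in both libraries. ZKSCAN4 was the lowered one, at 7.01 and 1.44 RPKM (ratio -1.13). Of the 9 butyrophilin and related genes nearby, 3 were expressed, and BTN3A3 was raised, at 0.0811 and 1.51 RPKM (ratio 1.81).

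Genes of translation had 4 raised and 1 lowered among 21 expressed members, with a median of 0.05. All 4 raised genes encode cytosolic ribosomal proteins. RPL10A read 197 RPKM in the library labelled VCaP against 338 RPKM in VCaP ERα (ratio 1.36). RPS10 read 109 and 334 RPKM (ratio 2.20), and RPS12 read 95.1 and 254 RPKM (ratio 2.00). EEF1A1, the elongation factor that brings aminoacyl-tRNA to the ribosome, was the most abundant at 472 and 484 RPKM (ratio 0.63). The mitochondrial ribosomal gene MRPL14 read 49.4 and 56.4 RPKM (ratio 0.78), and the lowered member, MRPL2, is mitochondrial too, at 10.4 and 2.44 RPKM (ratio -1.14).

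Metabolic and mitochondrial genes had the highest share raised among the chromosome 6 lists with at least 10 expressed members. Of 32 expressed, 12 (37.5%) were raised, against 26.8% of all expressed entries, and 6 (18.8%) lowered, close to the 19.2% of all expressed entries, with a median of 0.27. COX7A2, a subunit of cytochrome c oxidase, read 288 RPKM in the library labelled VCaP against 168 RPKM in VCaP ERα (ratio -0.19). GLO1, which detoxifies methylglyoxal, read 97.3 and 184 RPKM (ratio 1.5). ACAT2, a cytosolic thiolase that makes acetoacetyl-CoA, read 14.5 and 66.6 RPKM (ratio 2.71). PGM3, an enzyme of UDP-GlcNAc synthesis, read 22 and 35.8 RPKM (ratio 1.27).

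Other genes of the same list, picked out after their values were seen, differed in both directions. PECI, a peroxisomal enoyl-CoA isomerase, read 6.08 and 36.9 RPKM (ratio 3.01). The elongases ELOVL5, ELOVL2 and ELOVL4 read 8.68 and 31.9 RPKM (ratio 2.35), 5.05 and 16.1 RPKM (ratio 2.08), and 2.06 and 5.09 RPKM (ratio 1.58). THEM2, an acyl-CoA thioesterase, read 20.9 and 19.3 RPKM (ratio 0.48). ME1, the cytosolic malic enzyme that supplies NADPH, differed the other way, at 27.5 and 2.02 RPKM (ratio -2.65), as did FUCA2, a fucosidase, at 44.2 and 5.98 RPKM (ratio -2.11).

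The next list was a choice of genes from the long arm region often lost in prostate tumours, not all of its members. Of 31 expressed, 7 (22.6%) were raised and 5 (16.1%) lowered, with a median of 0.34. PM20D2 (ratio 5.57), TPBG (-4.75) and FAM46A (-3.57), between 80 and 90 Mb, were not listed. Over all longer members in windows of 10 Mb from 80 to 130 Mb, 23.1% to 50.0% were raised and 7.14% to 17.6% lowered. CD164, a sialomucin, read 93.7 RPKM in the library labelled VCaP against 126 RPKM in VCaP ERα (ratio 1.01). SNX3, a sorting nexin, read 78.7 and 45.8 RPKM (ratio -0.18). MARCKS, a membrane protein that binds actin, read 29.0 and 30.6 RPKM (ratio 0.66). AMD1, CCNC and PTPRK of this list are given above, and the widest gaps of the list, those of AMD1 and PTPRK, point in opposite directions.

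Protein kinase genes had 1 raised and 4 lowered (16.7%) of 24 expressed members, with a median of -0.03. Beside STK38 and DDR1, MAP3K7, which encodes the kinase TAK1, read 17.5 RPKM in the library labelled VCaP against 11 RPKM in VCaP ERα (ratio -0.03). SRPK1, a kinase of splicing factors, read 13 and 11.1 RPKM (ratio 0.38). The raised kinase was CDC2L6, a Mediator kinase of the second raised run, at 9.46 and 14 RPKM (ratio 1.11).

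Adhesion and cytoskeleton genes were divided evenly, 5 raised and 5 lowered of 18 expressed members, with a median of -0.43. EZR, which encodes ezrin and ties actin to the membrane, read 105 RPKM in the library labelled VCaP against 29.5 RPKM in VCaP ERα (ratio -1.20). DSP, the desmosomal protein desmoplakin, read 82.6 and 6.48 RPKM (ratio -2.89). CD2AP, an adaptor of the actin cytoskeleton chosen after its value was seen, was raised, at 4.82 and 14.3 RPKM (ratio 1.98). In the extracellular matrix list 5 of 18 members were expressed, 1 raised (SMOC2) and 3 lowered. COL12A1, a fibril-associated collagen, was 1 of the lowered, at 4.46 and 0.0756 RPKM (ratio -1.75), and the others were DSP and EDN1, which encode no matrix protein.

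Transporter genes had 3 raised and 1 lowered of 11 expressed members, with a median of 0.19. SLC35B2, a Golgi transporter of the sulphate donor PAPS, read 76.4 RPKM in the library labelled VCaP against 40.2 RPKM in VCaP ERα (ratio -0.32). SLC39A7, a zinc transporter, read 15.2 and 11.3 RPKM (ratio 0.19). The raised ones were SLC44A4, SLC22A3 and SLC16A10. Of 6 genes of glutathione handling 3 were expressed: GCLC, of glutathione synthesis, read 8.91 and 5.26 RPKM (ratio -0.07), GSTA4 read 1.05 and 6.25 RPKM (ratio 2.41) and GSTA1 read 2.37 and 0.107 RPKM (ratio -1.02).

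In the mouse fibroblasts the same genes differed little between NEAT1 KO and WT. By symbol 443 expressed members had a mouse gene, and 379 of these were expressed in the MEFs, with a median centred ratio of KO over WT of -0.01. Of the 379, 5 were raised, against 2.32% of 11463 expressed mouse symbols, and 1 was lowered, against 0.497%. The raised ones were Ier3, at 63.9 RPKM in WT and 194 RPKM in KO (ratio 1.65), Nt5e (0.813 and 3.92 RPKM), Tnfaip3, an inhibitor of NF-kB signalling (2.81 and 8.24 RPKM), Nfkbie and Fam46a. Perp was the lowered one, at 6.25 and 2.28 RPKM (ratio -1.09). The MEF and VCaP libraries differ in species, genotype and RNA selection, and their values were not set against each other.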

How the data were processed

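RNA was sequenced from VCaP and VCaP ERα cells (ribosomal RNA removed, strand kept) and from MEFs of WT and NEAT1 KO embryos (poly-A RNA), with 1 library per condition. The authors computed and deposited RPKM values per entry, and no normalization between libraries is stated. The submitters' processing notes name CASAVA 1.8 and the builds hg18 and mm10, with no further role given. Total read numbers are not given in the sources used here. Values below 20 RPKM x bases of the short entries were sums of whole multiples of a pair of steps, 0.900 and 1.347 in the library labelled VCaP (15 of 15 entries) and 0.877 and 1.030 in VCaP ERα (97 of 99, tolerance 0.004). What a step stands for is not given, so depth is unknown and no interval or detection limit was computed.

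From the deposited values centred log2 ratios with a pseudocount of 1, runs, stretches and list counts were computed with Python 3.11.15, numpy 2.4.6 and pandas 2.3.3, and plots were drawn with matplotlib 3.10.9. Groups came from the sample titles. No test was made. The computation was tested on simulated data. The members and lists were chosen with earlier results of these data known. The rule for naming took the 10 highest and 10 lowest ratios, per run the 3 members furthest in its direction and 1 furthest the other way, up to 6 genes per list from the highest mean RPKM down, and 2 members on either side of each limit. Other names were picked after their values were seen. Mouse genes were matched by symbol, keeping the entry with the highest mean. The alternatives were a pseudocount of 0.1, no centring, centring outside chromosome 6, quantile normalization, other filters on low values, 1 entry per symbol, overlapping entries reduced, all chromosome 6 entries kept, and other windows and limits for runs. A count was taken as the same within 1.5 times, a median ratio within 0.1 and a single gene's ratio within 0.58. No sequence of a member was printed, since a human genome was not used here.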

Additional observations from a re-analysis of the deposited data

How the results depend on the processing

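No paired analysis was possible because each condition has 1 library. The median ratio of the members, 0.12, became -0.47 without centring, 0.00 with 1 RPKM asked in both libraries, 0.59 with no filter and -0.03 without entries under 200 bases. Raised members, 211, became 80 with 1 RPKM asked in both libraries and 137 without short entries, and lowered members, 124, became 230 without centring and 77 with 1 RPKM asked in both. Members in raised runs, 91, became 0 with 1 RPKM asked in both, 24 without short entries and 176 at a limit of 0.5. The short arm median, 0.06, became -0.53 without centring, -0.07 under quantile normalization, -0.25 with 1 RPKM asked in both, 0.59 with no filter, -0.04 with all chromosome 6 entries, -0.23 without short entries and -0.05 with centring within 20 level bins. The long arm median, 0.21, became -0.38, 0.34 and 0.59 without centring, with 1 RPKM asked in both and with no filter. Leaving out short entries and centring by level were chosen after seeing the data. Entries at 0 in both libraries have a ratio of 0.59 by construction. Of 211 raised and 124 lowered calls, 63.0% were raised, against 40.7% without centring, 51.0% with 1 RPKM asked in both, 71.2% with no filter and 52.5% without short entries. Of the 33 members with the widest ratios or named for the runs, 23 moved by over 0.58 with a pseudocount of 0.1 and 2 under quantile normalization, and in neither did one change sign. Among the other expressed members named, HMGA1 (-0.02 to 0.08), MAP3K7 (-0.03 to 0.09), GCLC (-0.07 to 0.11) and TMEM170B did so under quantile normalization. The median of the mouse orthologues did not move past 0.1 in the alternatives run.

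Single libraries, the unknown depth and the markers that differ between the human libraries limit every ratio. The read numbers behind short entries and low genes are unknown, and their ratios depend on the pseudocount. Genomic spans are not transcript lengths, and GC content was not examined.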

Other observations

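Other dense groups of short entries, at least 20 with gaps of under 20000 bases, lay on other chromosomes. They were grouped by length and position only, so they may hold named short RNAs as well as entries named by an accession. There were 12 of them with 619 entries, of which 613 read 0 in the library labelled VCaP and 354 did so in VCaP ERα. Of these entries 133 were expressed, 131 were raised and 0 were lowered, against 77.9% raised and 2.29% lowered among all 480 expressed short entries. An entry at 0 in the library labelled VCaP that passed the filter could only be called raised, so the filter largely set these counts. The one most like the chromosome 6 cluster was on chromosome 22 at 36081616 to 36093953, where 35 of 36 entries read 0 in the library labelled VCaP and the median in VCaP ERα was 2.01 RPKM. On chromosome 14, at 100460911 to 100529399, all 40 entries were at 0 in both libraries, and on chromosome 15, at 100110315 to 100137175, 131 of 137 were at 0 in VCaP ERα.

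Among entries of 200 bases or more at the lowest levels, those with a mean log2(RPKM + 1) over the libraries of at most 1, the 80 chromosome 6 members had a median ratio of 0.16 and 1614 entries on other chromosomes had 1.53. Of the members 34 (42.5%) were raised, against 66.2% elsewhere. At so low a level an entry can hardly reach 1 RPKM in both libraries. These medians and shares thus mostly reflect the library through which entries passed the filter. At levels between 3 and 4 the medians were -0.07 (n = 117) and -0.23 (n = 2334). The difference at the lowest levels was not tested.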
